A study of Homo sapiens with 3 samples.

Results

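The cytosolic ribosomal protein genes encode the proteins of the large (60S) and small (40S) ribosomal subunits. They were taken as the symbols made of RPL or RPS, a number and at most 1 of the letters A, X or L, together with RPLP0, RPLP1, RPLP2 and RPSA, whatever their values. The rule found 81 of the 31113 gene symbols in the files, 49 of the large and 32 of the small subunit. A level of at least 10 counts per 1000000 counted molecules (CPM) in at least 1 library was reached by 79 of them, 47 of the large and 32 of the small subunit. The other two were the tissue-restricted copies RPL3L and RPL10L.

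The data are single-cell transcriptomes of H9, an established human embryonic stem cell line, from a study of enhancer regulation during neural progenitor cell (NPC) differentiation. The 3 libraries are labelled day 0, day 2 and day 6 of this differentiation, 1 library per day, and the labels name the STEMdiff SMADi Neural Induction Kit and mTeSR for all of them. The cell type label is human embryonic stem cell for day 0, and differentiated embryonic stem cell or neural progenitor cell for day 2 and day 6. What the closing letters A, B and A of the titles mean is not given in the sources used here. Cells were captured with inDrop and the TruDrop protocol, a droplet method with 1 barcode per cell and 1 unique molecular identifier (UMI) per captured RNA.

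After filtering, 2290, 2419 and 4180 cells remained (from here on, 3 values in a row follow the order of the labels, day 0, day 2, day 6), with 28341741, 20626135 and 41268018 UMIs and a median of 8770, 3814 and 4429 UMIs per cell. Among the kept cells 38 to 82 barcodes were shared between each pair of libraries. The marker content went against the day labels. POU5F1, the pluripotency factor OCT4, stood at 2.22, 1229 and 268 CPM, and PAX6, a neural progenitor factor, at 176, 6.64 and 27.9 CPM. The 12 pluripotency markers summed to 2152 CPM in the library labelled day 0 and to 5841 and 4677 CPM in the other two, with TDGF1 at 0 UMIs in the first. LIN28A (1039 CPM) and SOX2 (600.35 CPM) made up most of the sum in the library labelled day 0. The 14 neural markers summed to 1791, 525 and 1533 CPM, and SOX2, which both lists hold, stood at 600.35, 333 and 810.4 CPM. Of 10 markers of tissues that the culture should lack, 9 were found, and all but TNNI3 (23.3 to 53.7 CPM) stayed under 1.5 CPM. The libraries are therefore named by their labels, and no difference between them is given as a change over time. A ratio such as labelled day 2/day 0 divides the level in the library labelled day 2 by that in the library labelled day 0. With 1 library per label no test between libraries was possible. Every interval is a 95% interval for counting error only, and no replicate shows how far separate cultures would differ.

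Each ribosome holds 1 copy of most of these proteins, so a cell has to make them in matched amounts. Their messenger RNAs are among the most abundant of growing cells, and most begin with a run of pyrimidines at the 5′ end, the TOP motif. Through this motif their translation is controlled by the mTOR pathway and by the RNA-binding protein LARP1, so a level of RNA does not by itself give the rate at which the protein is made. In pluripotent stem cells, ribosome production and its control are known to accompany rapid growth, and a reduced dose of single ribosomal proteins causes Diamond-Blackfan anaemia in people.

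The start of the transcript was read from the RefSeq promoter table (build GRCh38.p14), which held a window for 64 of the 81 genes. A C at the annotated start followed by at least 4 pyrimidines was found in at least 1 window of 46 of these 64 genes (71.9%), against 5.14% of all 27305 genes in the table. The sequences below run 5′ to 3′ from 30 bases before the annotated start to 20 bases from it, and capitals mark the unbroken pyrimidine run that begins at the start. RPS3A, RPL26 and RPL21 are shown because they were among the lowest in the library labelled day 6, RPL39 because it was among the lowest in that labelled day 2 against day 0, and RPL3, RPL10, RPS29 and RPSA because they were at the opposite end of a comparison. RPS27 and its copy RPS27L, and RPL10L, are shown because the copies lack the run that RPS27 and RPL10 carry in the windows shown. For RPL10, which has 3 windows, the one with the pyrimidine start and the longest run is shown. The other genes shown have 1 window each.
RPS3A, chr4:151099598-151099647, plus strand: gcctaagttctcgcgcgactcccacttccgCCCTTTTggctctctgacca
RPL26, chr17:8383174-8383223, minus strand: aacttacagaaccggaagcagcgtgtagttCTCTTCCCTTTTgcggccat
RPL21, chr13:27251528-27251577, plus strand: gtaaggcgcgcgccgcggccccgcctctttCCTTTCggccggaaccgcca
RPL39, chrX:119791611-119791660, minus strand: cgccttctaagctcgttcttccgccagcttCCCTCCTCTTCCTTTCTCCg
RPL3, chr22:39319604-39319653, minus strand: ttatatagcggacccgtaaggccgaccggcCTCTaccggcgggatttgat
RPL10, chrX:154398347-154398396, plus strand: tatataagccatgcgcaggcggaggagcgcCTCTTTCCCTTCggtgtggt
RPS29, chr14:49598691-49598740, minus strand: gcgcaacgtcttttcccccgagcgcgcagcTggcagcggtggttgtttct
RPSA, chr3:39406690-39406739, plus strand: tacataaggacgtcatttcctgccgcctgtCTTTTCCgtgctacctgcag
RPS27, chr1:153990732-153990781, plus strand: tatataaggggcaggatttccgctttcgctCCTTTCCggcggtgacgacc
RPS27L, chr15:63157458-63157507, minus strand: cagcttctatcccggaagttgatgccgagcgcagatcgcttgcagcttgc
RPL10L, chr14:46651762-46651811, minus strand: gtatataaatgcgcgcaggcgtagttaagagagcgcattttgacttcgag

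Pyrimidine runs were found at both ends of the comparisons. RPL39 had a run of 19 bases, and RPL10 a run of 12 in the window shown. They differed in opposite directions between the libraries labelled day 2 and day 0, as the values below show. RPL3 fell 1 pyrimidine short of the definition and RPS29 began with a single T. Over the whole windows of 250 bases before and 50 after the start, searched on both strands, the ETS-family word CCGGAAG was found for 23 of 64 genes (35.9%) against 12.2% of all genes. The YY1 word AAGATGGC was found for 6 (9.38%) against 3.52%, and the E-box CACGTG for 4 (6.25%) against 8.78%. These words do not contain one another, and a match describes letters, not binding. Members with the pyrimidine start had median log2 ratios of 0.03, -0.19 and -0.16 for labelled day 2/day 0, day 6/day 2 and day 6/day 0 (n = 46). Members whose window lacked it and that were past the minimum had -0.01, -0.32 and -0.24 (n = 17), and members with no window -0.04, -0.30 and -0.33 (n = 16).

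Summed over all 81 genes, ribosomal protein transcripts made up 16.5% of the UMIs (16.442% to 16.469%) in the library labelled day 0, 16.3% (16.325% to 16.357%) in the next and 14.5% (14.459% to 14.48%) in that labelled day 6. The first libraries were nearly level and the library labelled day 6 was lowest. Mitochondrially encoded genes took 12.4%, 11.8% and 12.1% of UMIs, and without them the shares were 18.8%, 18.5% and 16.5%. The summed ratio was 0.993 (0.992 to 0.994) for labelled day 2/day 0, 0.885 (0.884 to 0.887) for day 6/day 2 and 0.879 (0.878 to 0.88) for day 6/day 0. The order of the first pair depended on the cells used: with all deposited barcodes it was 15.9% against 14.6%, and with CPM averaged over cells 17.2% against 18.3%. The library labelled day 6 was lowest under each of the 12 alternative settings run.

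Both subunits were lowest in the library labelled day 6. The summed 60S level was 98986, 97171 and 86735 CPM, and the summed 40S level 65568, 66242 and 57960 CPM. The ratio of the first to the second was 1.51, 1.467 and 1.497. The labelled day 6/day 2 ratio was 0.893 (0.891 to 0.894) for the 60S sum and 0.875 (0.873 to 0.877) for the 40S sum.

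**Figure D1:**
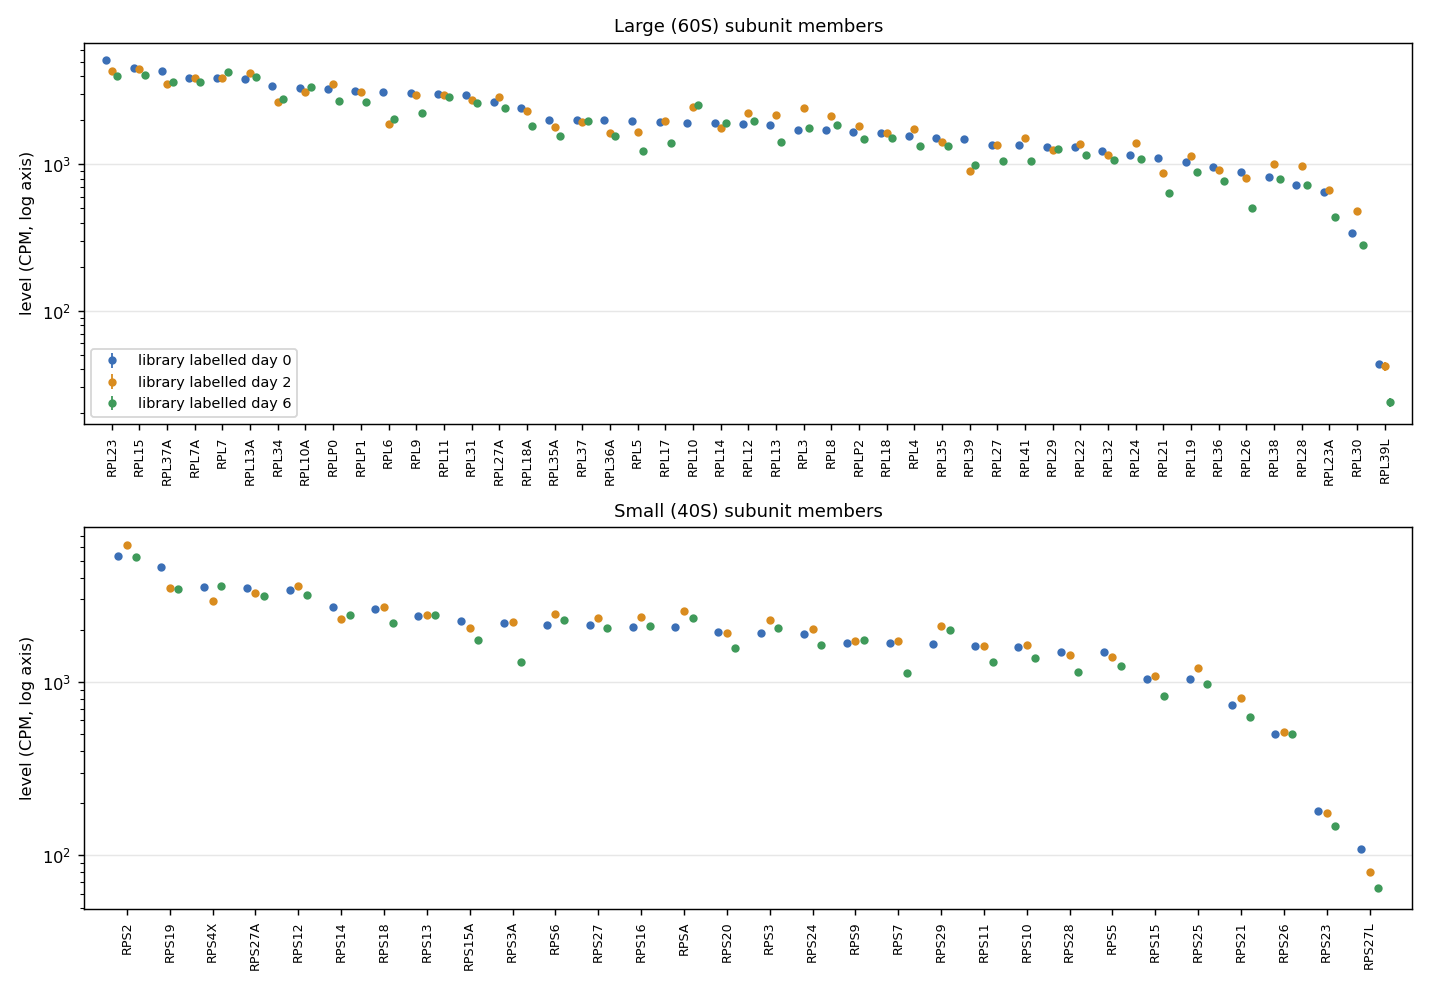
Level of 77 of the 79 ribosomal protein genes that reached 10 CPM in any library (CPM, log axis), with 1 point per library and exact Poisson 95% intervals, most of them smaller than the points. The points of a gene lie close together beside the range between genes, and for most genes the library labelled day 6 is lowest.

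A gene was counted by UMIs, so CPM were not divided by transcript length, and levels of different genes are not compared further here. In each library the members kept nearly the same order of CPM. Over the 79 genes, Pearson's r between log2 CPM of 2 libraries was 0.98 in each of the 3 pairs, against 0.78, 0.87 and 0.85 for all genes with at least 10 CPM. Spearman's rank correlation was 0.95, 0.97 and 0.95 for the members, against 0.81, 0.87 and 0.86 for all genes. Both measures are descriptions across genes of single libraries, which share their totals and are not replicates. RPS2, a 40S protein at the mRNA entry, had the most UMIs of all members in every library, at 5321, 6158 and 5229 CPM. Of the 100 genes with the most UMIs, 59, 59 and 53 were members.

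The gene by gene ratios were narrow. The highest library stood a median of 1.248-fold over the lowest for a member, and as little as 1.02-fold for RPS13, and 65 of 79 members stayed under 1.5-fold. This fold over the 3 libraries was not computed for all genes, so the comparison with them rests on the spreads that follow. Across members the SD of the log2 ratio was 0.23 for labelled day 2/day 0, 0.24 for day 6/day 2 and 0.28 for day 6/day 0. For all genes with at least 10 CPM it was 1.16, 0.86 and 0.96. The spread was also wider among other abundant genes: those with at least 500 CPM that are no member had interquartile ranges of 0.73, 0.71 and 0.77, against 0.23, 0.30 and 0.33 for the members. Counting error was far smaller than either, since the median half-width of a member's 95% interval was 0.02 on the log2 scale in each comparison.

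**Figure D2:**
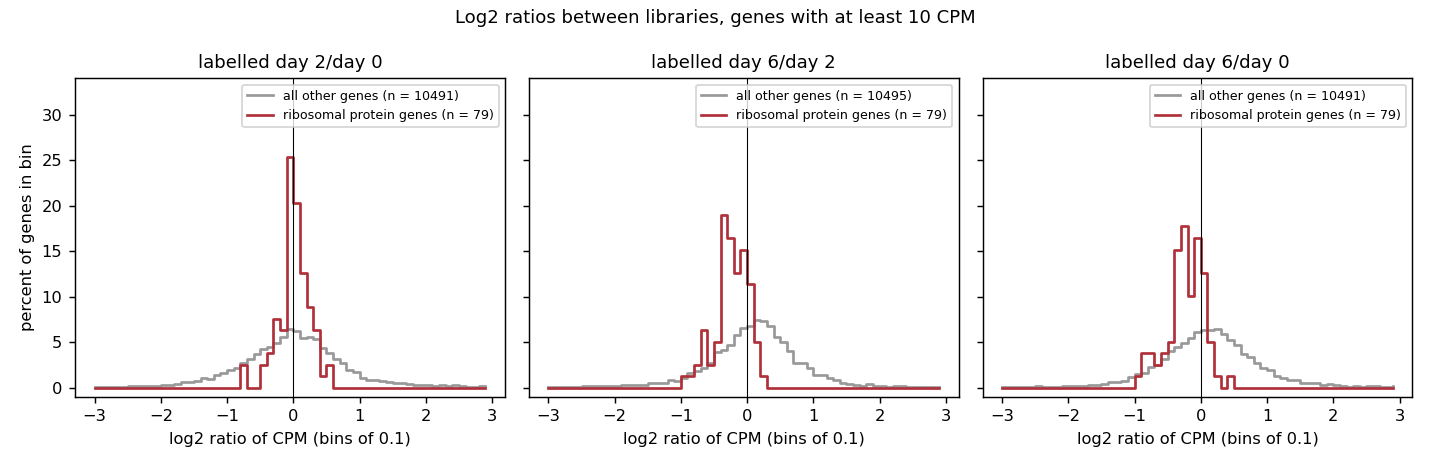
Distribution of log2 ratios of CPM (bins of 0.1) for the 79 ribosomal protein genes and all other genes with at least 10 CPM, as percent of each set, in 3 pairs of libraries. The members form a narrow peak, which lies near 0 for labelled day 2/day 0 and below 0 in both comparisons with the library labelled day 6, and 134 to 305 other genes lie beyond the axis.

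The library labelled day 6 was the lowest for 55 members and the highest for 6 (RPL10, RPL10A, RPL7, RPS13, RPS4X and RPS9). The libraries labelled day 0 and day 2 were the highest for 36 and 37 members. The order was not counted over all genes, and it depends on the scaling. Of 79 members, 65 lay below a log2 ratio of 0 for labelled day 6/day 2 and 63 for day 6/day 0. With median-of-ratios factors 76 and 75 did. The comparisons share libraries, so their values are not independent of one another.

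Labelled day 2/day 0 sets side by side the libraries with the most and the least POU5F1. The ribosomal protein genes as a group were level: the median log2 ratio was 0.00 and that of all genes 0.01, with 38 of 79 members below 0. The sign of the members' median changed between settings, from -0.12 with all barcodes to 0.11 with CPM averaged over cells. At the limit of 1.5-fold, 0 of 79 members were higher in the library labelled day 2, where 20.1% of all 10574 genes were, and 2 of 79 were lower, RPL6 and RPL39, where 20.4% of all genes were. At 2-fold, 0 members were past the limit in either direction, against 10.1% of all genes higher and 10% lower.

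RPL6, a 60S protein with roles in the response to DNA damage, stood at 3092, 1894 and 2035 CPM. RPL39, a very small protein that lines the tunnel through which the new chain leaves the ribosome, stood at 1479, 907 and 993 CPM. Both were high in the library labelled day 0 and at a lower, similar level in the other two. The ratio of labelled day 2/day 0 was 0.613 (0.605 to 0.62) for RPL6 and 0.613 (0.603 to 0.624) for RPL39, and both stayed past 1.5-fold in each of the 12 alternative settings run for single genes. RPL6 lies on chromosome 12 (112405190 to 112418838) and RPL39 on X (119786504 to 119791643). RPL6 overlaps PTPN11 on the opposite strand, and the strand setting of the counting is not given in the sources used here.

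Next below 0 came RPS27L (log2 ratio -0.45), RPS19 (-0.40), RPL34 (-0.36) and RPL21 (-0.35). RPS19, the gene most often mutated in Diamond-Blackfan anaemia, stood at 4584, 3469 and 3442 CPM, again high in the library labelled day 0 alone. Its ratio was 0.757 (0.75 to 0.764).

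At the other end, RPL3, which lies at the peptidyl transferase centre, stood at 1715, 2439 and 1771 CPM, highest in the library labelled day 2. Its ratio of labelled day 2/day 0 was 1.42 (1.4 to 1.44). RPL30 stood at 340, 483 and 281 CPM, with the same ratio of 1.42 (1.38 to 1.46), and RPL28 at 720, 967 and 721 CPM with 1.34 (1.32 to 1.37). RPL3 and RPL28 had nearly equal levels in the libraries labelled day 0 and day 6. RPL10, which joins the 60S subunit late and is needed for its release into translation, followed another order, at 1908, 2458 and 2538 CPM, lowest in the library labelled day 0. RPS29 (1647, 2108 and 2002 CPM) and RPSA (2064, 2562 and 2347 CPM) were also lowest in the library labelled day 0, but highest in that labelled day 2. RPSA is also known as the laminin receptor. RPL3 passed 1.5-fold in 2 and RPL30 in 1 of the 12 alternative settings.

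In labelled day 6/day 2 the ribosomal protein genes were lower in the former library. The median log2 ratio was -0.23 where that of all genes was 0.12, so the members lay -0.36 from the median gene, and 65 of 79 were below 0. TMM and median-of-ratios factors moved the median of all genes to 0.03 and 0.00. A scaling factor shifts members and all genes alike, so the distance stayed at -0.36 by construction, apart from genes at the minimum. It did depend on the cells used, from -0.28 with at least 5% mitochondrial UMIs to -0.49 with at most 10%. At 1.5-fold, 0 of 79 members were higher (all genes 20.7%) and 9 of 79 (11.4%) were lower (all genes 13.4%). The share of lower members was near that of all genes, while most members lay a little below 0. At 2-fold, 0 members were past the limit, against 8.39% of all genes higher and 6.25% lower.

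Among the 9 were RPL39L, RPL30, RPS3A, RPL26, RPS7, RPL23A and RPL13. RPS3A, which binds initiation factors on the 40S subunit, stood at 2200, 2228 and 1306 CPM, with a ratio of labelled day 6/day 2 of 0.586 (0.579 to 0.594). RPS7, a Diamond-Blackfan anaemia gene, stood at 1686, 1724 and 1121 CPM, and RPL23A, a docking point at the exit tunnel, at 643, 667 and 434 CPM. These genes shared one order, with the first pair of libraries nearly level and that labelled day 6 lower.

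RPL26, at the exit tunnel, stood at 880, 811 and 505 CPM. It was highest in the library labelled day 0 and lowest in that labelled day 6, with a ratio of labelled day 6/day 2 of 0.622 (0.61 to 0.635). RPL30 and RPL13 (1852, 2158 and 1418 CPM) were highest in the library labelled day 2. RPL30's ratio was 0.582 (0.566 to 0.598). Of those named, RPL39L, RPL30 and RPS3A stayed past 1.5-fold in each of the 12 alternative settings, and RPL26 in 11. With all barcodes, and with cells of at least 5% mitochondrial UMIs, the count was 6 of 79 (all genes 11.45% and 13.8%).

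RPS3A lies on chromosome 4 (151099573 to 151104652) and RPL26 on chromosome 17 (8377516 to 8383250). The annotation places small nucleolar RNA genes inside 28 of the 79 members, RPS3A among them, and the median log2 ratio of labelled day 6/day 2 was -0.26 for these and -0.21 for the other 51. It names 1133 pseudogenes of the 79 measured members, a median of 9 per member and up to 91 for RPL23A, and the files hold none of these symbols. How reads that fit both a member and a pseudogene were counted is not given, so the levels of members with many copies are uncertain. The 26 members with the fewest and the 26 with the most pseudogene names had median log2 ratios of labelled day 6/day 2 of -0.27 and -0.20.

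Few members had labelled day 6/day 2 ratios above 1. RPS4X, an X-linked gene for a 40S protein, stood at 3513, 2935 and 3583 CPM, lowest in the library labelled day 2. Its ratio of labelled day 6/day 2 was 1.22 (1.21 to 1.23), the highest of the measured members, and its log2 ratio stayed above 0 in each alternative, from 0.16 to 0.44. RPL7 (log2 ratio 0.13), RPL10A (0.11), RPL6 (0.10) and RPL14 (0.09) had lower bounds below 0 among the alternatives, RPL7 with at most 10% mitochondrial UMIs and the others with median-of-ratios factors. RPL39 (0.13) ranged from 0.01 to 0.29.

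**Figure D3:**
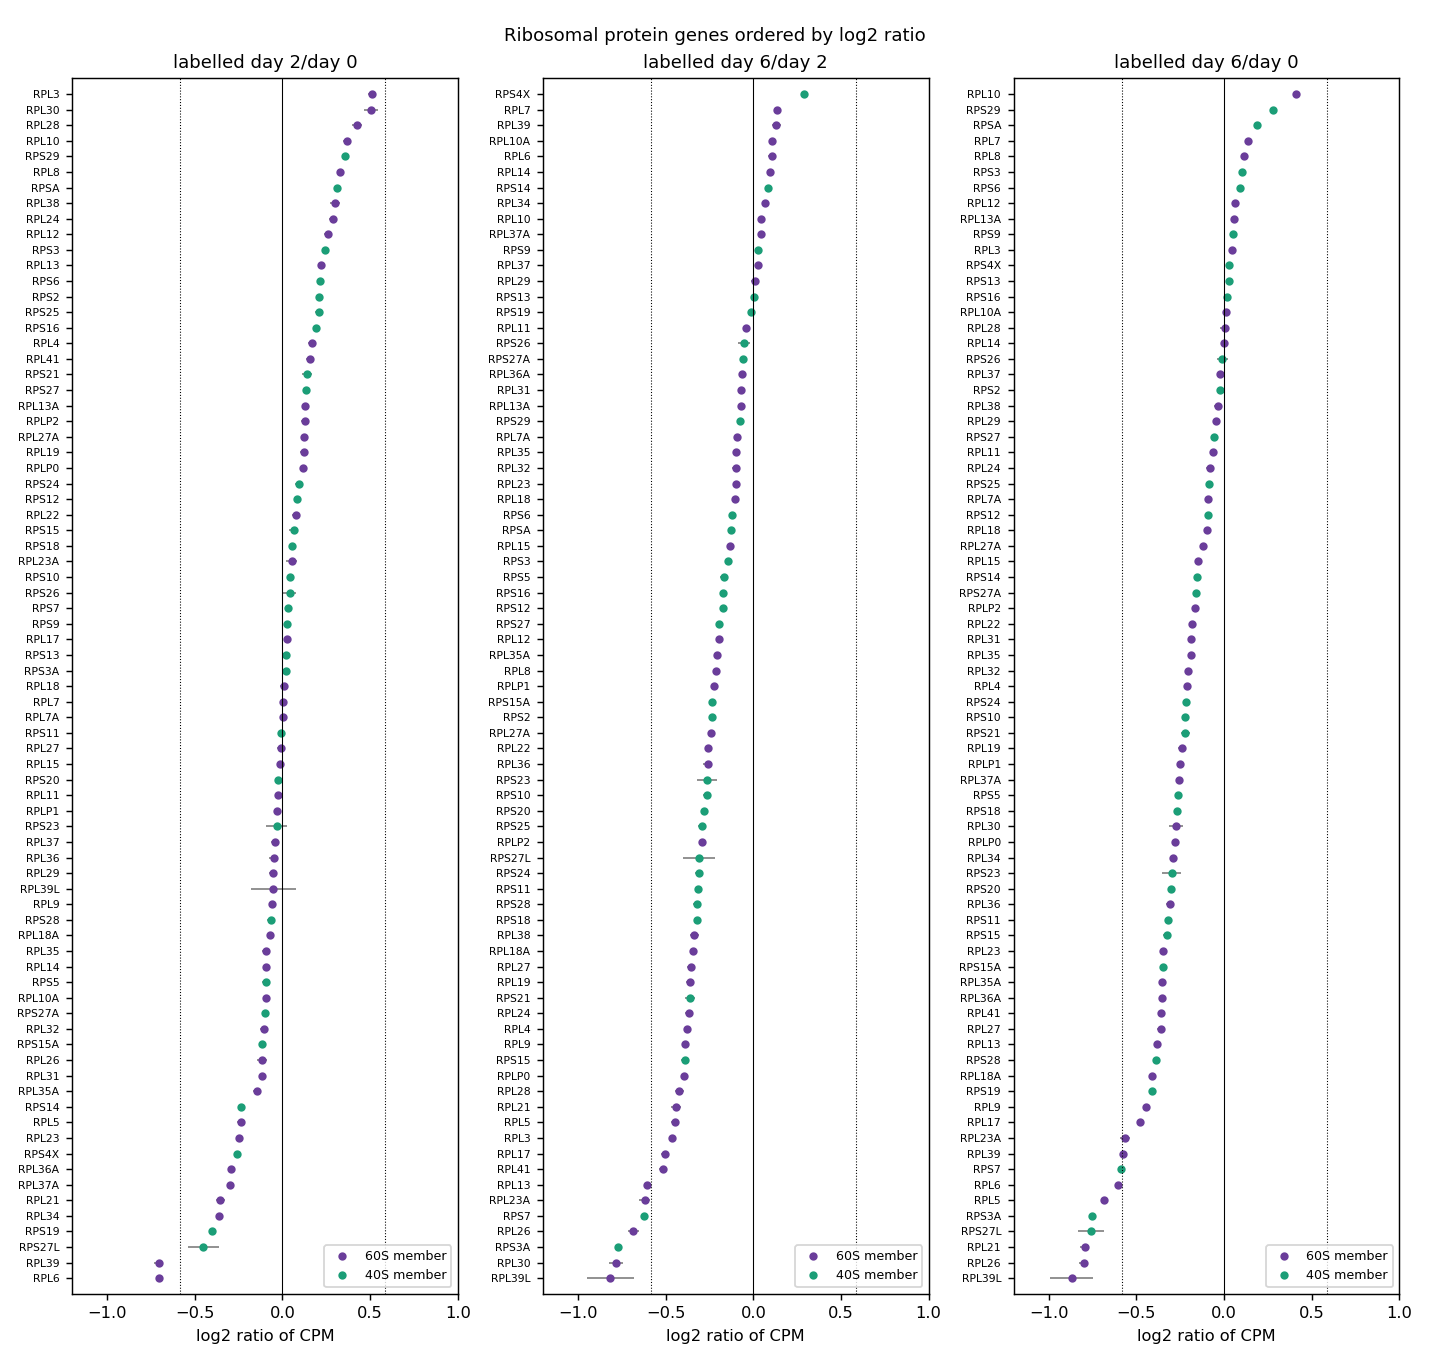
Of the 79 ribosomal protein genes, 77 ordered by log2 ratio of CPM in each pair of libraries, coloured by subunit, with exact conditional binomial 95% intervals and dotted lines at 1.5-fold. RPL6 and RPL39 stand apart at the low end of labelled day 2/day 0, and most genes lie below 0 in both comparisons with the library labelled day 6.

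In labelled day 6/day 0 the members were again lower in the former, with a median log2 ratio of -0.22 beside 0.12 for all genes, and 63 of 79 below 0. At 1.5-fold, 0 of 79 were higher (all genes 23.2%) and 10 of 79 (12.7%) were lower (all genes 14.4%). At 2-fold the members counted 0 in both directions, against 10.8% and 6.06% of all genes. Among the 10 were RPL39L, RPL26, RPL21, RPS27L, RPS3A, RPL5, RPL6 and RPS7. With TMM or median-of-ratios factors 13 of 79 were lower (all genes 18.1% and 18.7%), RPL17, RPL23A and RPL39 in addition. These counts of lower members did not exceed the share of all genes.

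RPL21, a 60S protein, stood at 1107, 866 and 638 CPM, highest in the library labelled day 0, with a ratio of labelled day 6/day 0 of 0.576 (0.567 to 0.586). RPL21 lies on chromosome 13 (27251309 to 27256691). The 66 named pseudogenes of RPL21, and the 74 of RPSA, make their levels among the less certain. At the high end RPL10 had a ratio of 1.33 (1.32 to 1.34), RPS29 1.22 (1.2 to 1.23) and RPSA 1.14 (1.13 to 1.15), and all of them stayed above 1 in each of the 12 alternatives.

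Grouped by their place in the ribosome, the members were mostly lower in the library labelled day 6. The P stalk, which recruits elongation factors, consists of RPLP0 (3276, 3551 and 2702 CPM), RPLP1 (3165, 3098 and 2657 CPM) and RPLP2 (1661, 1813 and 1479 CPM). All of them were lowest in the library labelled day 6 and 0 of 3 passed 1.5-fold in any comparison. Their log2 ratios of labelled day 6/day 2 ran from -0.39 for RPLP0 to -0.22 for RPLP1.

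RPL5 and RPL11 form with the 5S RNA a particle that, outside the ribosome, binds the ubiquitin ligase MDM2. RPL5 stood at 1974, 1673 and 1226 CPM, highest in the library labelled day 0 and lowest in that labelled day 6. RPL11 stood at 3035, 2985 and 2899 CPM, almost level. The ratio of labelled day 6/day 0 was 0.621 (0.614 to 0.629) for RPL5 and 0.955 (0.947 to 0.963) for RPL11, so the partners of 1 particle had unequal ratios.

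The 8 proteins around the exit tunnel had medians of -0.03, -0.37 and -0.36 for labelled day 2/day 0, day 6/day 2 and day 6/day 0. RPL39 was the only one of them below -0.58 in the first, RPL26 and RPL23A in the second and RPL26 in the last. In the 40S head (14 members) and body (17 members) the medians were -0.22 and -0.23 for labelled day 6/day 2. In the head 1 of 14 was lower by 1.5-fold, and in the body 3 of 17, RPS3A and RPS7 among them, beside 13.4% of all genes, and counts this small do not set either apart from all genes. All 14 head members lay below 0 in that comparison (at least 13 in each of the 12 alternatives), and 13 of 17 body members did. Of all 79 members 65 did, so most members of any such group would be below 0. The 33 members with a bacterial counterpart and the 44 without one, leaving out the tissue-restricted and duplicated copies, had medians of -0.21 and -0.24 there, with 2 of 33 and 6 of 44 lower by 1.5-fold, the latter near the share of all genes.

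The 10 Diamond-Blackfan anaemia genes on the list, RPS19, RPL5, RPL11, RPS7, RPS26 and RPL15 among them, had medians of -0.02, -0.24 and -0.29. All 10 lay below 0 in both comparisons with the library labelled day 6, though RPS19, RPL11 and RPL15, all near 0, crossed it for labelled day 6/day 2 in at least 1 alternative, and for labelled day 6/day 0 the count below 0 fell to 9 in some alternatives. Of all 79 members, 65 lay below 0 for labelled day 6/day 2 and 63 for day 6/day 0. RPS7 passed 1.5-fold in both comparisons, and RPL5 in labelled day 6/day 0. RPS26 (502, 516 and 498 CPM) and RPL15 (4552, 4500 and 4100 CPM) were almost level. RPS6, whose phosphorylation reports mTOR signalling, stood at 2136, 2482 and 2278 CPM, and RPL38, known for its part in the translation of Hox mRNAs in the mouse, at 815, 1004 and 795 CPM. Both were highest in the library labelled day 2.

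The 4 X-linked members differed among themselves. RPL10 was lowest in the library labelled day 0 and RPL39 highest there, RPS4X was lowest in that labelled day 2, and their log2 ratios of labelled day 2/day 0 spanned -0.71 to 0.37.

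The copies that replace a common member in some tissues were low. RPL3L, a heart and muscle form of RPL3, had 76, 107 and 47 UMIs, which gave levels of 2.68, 5.19 and 1.14 CPM with intervals of 2.11 to 3.36, 4.25 to 6.27 and 0.837 to 1.51. It was highest in the library labelled day 2. RPL10L, a testis form of RPL10, had 1 UMI in the library labelled day 0 (0.0353 CPM) and 0 in those labelled day 2 and day 6. There its intervals reached up to 0.179 and 0.0894 CPM. RPL39L, a copy of RPL39 best known from testis, stood at 43.3, 41.7 and 23.7 CPM, a ratio of labelled day 6/day 2 of 0.568 (0.518 to 0.623). Its parent RPL39 did not share this order, being highest in the library labelled day 0 alone.

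RPS27L, a copy of RPS27, stood at 109, 80.0 and 64.55 CPM, again highest in the library labelled day 0. Its parent RPS27 was nearly level at 2126, 2335 and 2040 CPM. The ratio of labelled day 6/day 0 was 0.59 (0.56 to 0.622) for RPS27L and 0.96 (0.95 to 0.97) for RPS27. RPS27L depended on the cells used more than the others: its log2 ratio of labelled day 2/day 0 was -0.45 with the filter used here and ranged from -0.74 to -0.07, and that of labelled day 6/day 0 passed 1.5-fold in 10 of 12 alternatives.

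The other gene lists of the ribosome pathway differed from one another in their spread. The SD of the log2 ratios of labelled day 2/day 0, 0.23 over the 79 members, was 0.58 over the ribosomal protein genes whose symbols the rule does not match, 0.42 over other TOP translation genes, 0.33 over ribosome biogenesis genes and 0.36 over mitochondrial ribosomal protein genes. The 0.58 is over 7 genes and rests mainly on RPL22L1, at 1.57, while the other 6 lay between -0.18 and 0.25. It therefore does not show a wider spread of these genes in general. For labelled day 6/day 2 the SD was 0.24 over the members and also 0.24 over the TOP translation genes. Of ribosomal protein genes whose symbols the rule does not match, 7 were found. FAU (666, 701 and 639 CPM), which encodes a ribosomal protein fused to a ubiquitin-like part, and the 40S scaffold RACK1 (1359, 1580 and 1236 CPM) stayed within 1.5-fold, as did RPL36AL, RPL26L1 and RPL7L1. RPL22L1, a copy of RPL22 that also regulates splicing, stood at 57.2, 170 and 73.5 CPM. It was highest in the library labelled day 2, with log2 ratios of 1.57 for labelled day 2/day 0 and -1.21 for day 6/day 2, outside the range of the 79 members.

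Other mRNAs known to begin with a TOP motif were counted on a list of 18 translation genes, of which 17 were found and 15 passed 10 CPM. In labelled day 2/day 0, 2 of 15 were at least 1.5-fold higher (all genes 20.1%) and 1 lower (20.4%), with a median of 0.13. In labelled day 6/day 2, 0 of 15 were higher (20.7%) and 1 lower (NACA; 13.4%), with a median of -0.18. In labelled day 6/day 0, 2 were higher (23.2%) and 3 lower (14.4%), with a median of 0.07 that was -0.04 with TMM factors. The median of the first comparison turned to -0.10 with all deposited barcodes. EEF2, the translocation factor, stood at 959, 1704 and 1446 CPM, and NAP1L1, a histone chaperone, at 1406, 897 and 687 CPM. EEF1A1, which brings tRNA to the ribosome, stood at 4957, 6871 and 4852 CPM, highest in the library labelled day 2.

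Genes that build the ribosome differed much more between the libraries labelled day 2 and day 0 than the proteins it is built from. In the ribosome biogenesis list of 31 genes, 20 passed 1.5-fold upwards in the library labelled day 2 and 0 downwards, with a median log2 ratio of 0.66 and all 31 above 0, where 20.1% of all genes were higher and 20.4% lower. Over the 12 alternatives the 20 became 10, with all deposited barcodes, to 26, at least 30 genes stayed above 0 and the median ran from 0.52 to 0.84. Among them were RRS1 (14.5, 42.0 and 28.1 CPM) and BOP1 (24.1, 55.0 and 27.8 CPM), assembly factors of the 60S subunit, the ribosomal RNA methyltransferase FBL (286, 451 and 309 CPM) and the pseudouridine synthase DKC1 (76.7, 132 and 77.1 CPM). In labelled day 6/day 2, 9 of 31 were lower (all genes 13.4%) and 1 higher (UBTF; all genes 20.7%), with a median of -0.49. With TMM and median-of-ratios factors 15 and 17 were lower (all genes 16.1% and 17.1%) and 0 higher (16.6% and 15.7%). GNL3, nucleostemin, was the lowest there, at 47.9, 76.2 and 31.4 CPM. In labelled day 6/day 0, 7 of 31 were higher and 1 lower, with a median of 0.18, and the 7 lay near the 23.2% of all genes that were higher. UBTF, the factor of ribosomal DNA transcription, stood at 8.86, 22.01 and 34.97 CPM, lowest in the library labelled day 0.

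Mitochondrial ribosomal protein genes, which belong to another ribosome, had 72 of 78 members past the minimum. Of these, 23 were higher and 1 lower in labelled day 2/day 0 (median 0.38), 1 higher and 11 lower in day 6/day 2 (-0.21), and 11 higher and 2 lower in day 6/day 0 (0.14). The shares of all genes were 20.1% higher and 20.4% lower in the first, 20.7% and 13.4% in the second and 23.2% and 14.4% in the last, so the 11 of 72 lower in labelled day 6/day 2 lay near the share of all genes. In the alternatives the first count ran from 11 to 30, the 11 lower from 6 to 20 and the 11 higher from 5 to 17. Of 8 regulators, MYC, which drives ribosome production, stood at 7.48, 39.0 and 7.73 CPM, and MYCN at 21.7, 105 and 72.7 CPM. EIF4EBP1, a translation repressor under mTOR, stood at 48.6, 90.4 and 41.1 CPM and LARP1 at 157, 251 and 219 CPM. These 4 were highest in the library labelled day 2 and passed 1.5-fold over day 0, while MTOR, RPTOR, LARP4 and RPS6KB1 did not. The 4 of 8 stand beside 20.1% of all genes, and the count ran from 3 to 4 in the alternatives. In labelled day 6/day 2, 1 of 8 was higher (all genes 20.7%) and 2 lower (13.4%). In labelled day 6/day 0, 2 were higher (23.2%) and 0 lower (14.4%). Counts over 8 genes are small.

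**Figure D4:**
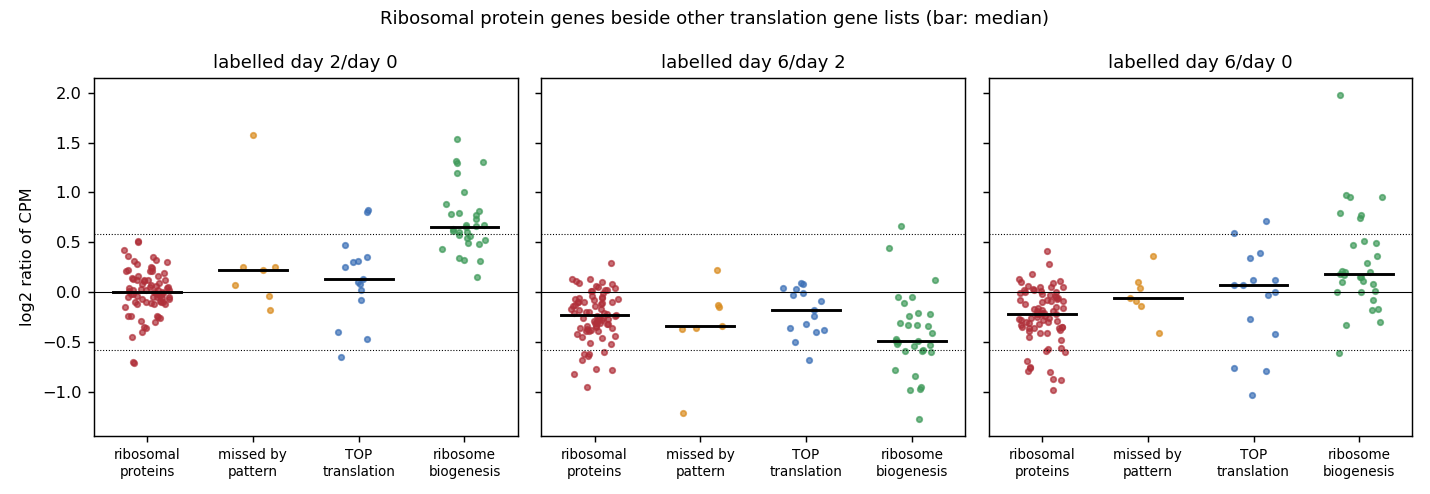
Log2 ratios of CPM for the 79 ribosomal protein genes, 7 ribosomal protein genes outside the naming rule, 15 other TOP translation genes and 31 ribosome biogenesis genes, 1 point per gene, with bars at the medians and dotted lines at 1.5-fold. In labelled day 2/day 0 the ribosomal protein genes centre on 0.00 and all 31 biogenesis genes lie above 0.

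Within each library the ribosomal protein share varied from cell to cell. As a percent of UMIs outside mitochondrial genes, the median cell held 19.2%, 19.5% and 16.8%. The middle 90% of cells ran from 14.7% to 24.8%, 14.7% to 26.1% and 12.4% to 23.8%. After each cell was thinned to 1000 UMIs, with no kept cell left out, the SD over cells was 3.36, 4.02 and 3.97 percentage points, against 1.33, 1.32 and 1.26 from sampling alone. Cells are not replicates, so these figures describe single libraries.

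The share was higher in cells with few mitochondrial UMIs. Kept cells under 5% mitochondrial UMIs numbered 463, 1185 and 1648, and held summed shares of 21.3%, 20.5% and 18.2%. Cells with 5% to 25% numbered 1827, 1234 and 2532 and held 18.6%, 17.8% and 16.1%. The former also had fewer UMIs, with medians of 2768, 3170 and 2480 against 11763, 5904 and 8795, and the part of depth in the difference was not tested. By gene, the median log2 ratio between the classes was 0.16, 0.17 and 0.17 for the members and -0.13, -0.16 and -0.12 for all genes outside the mitochondria. The library labelled day 2 had the largest fraction of cells under 5%, 49.0% against 20.2% and 39.4%. The share also differed with depth. In the third of kept cells with the fewest UMIs it was 20.3%, 21.0% and 18.6%, and in the third with the most 18.5%, 18.0% and 16.1%.

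**Figure D5:**
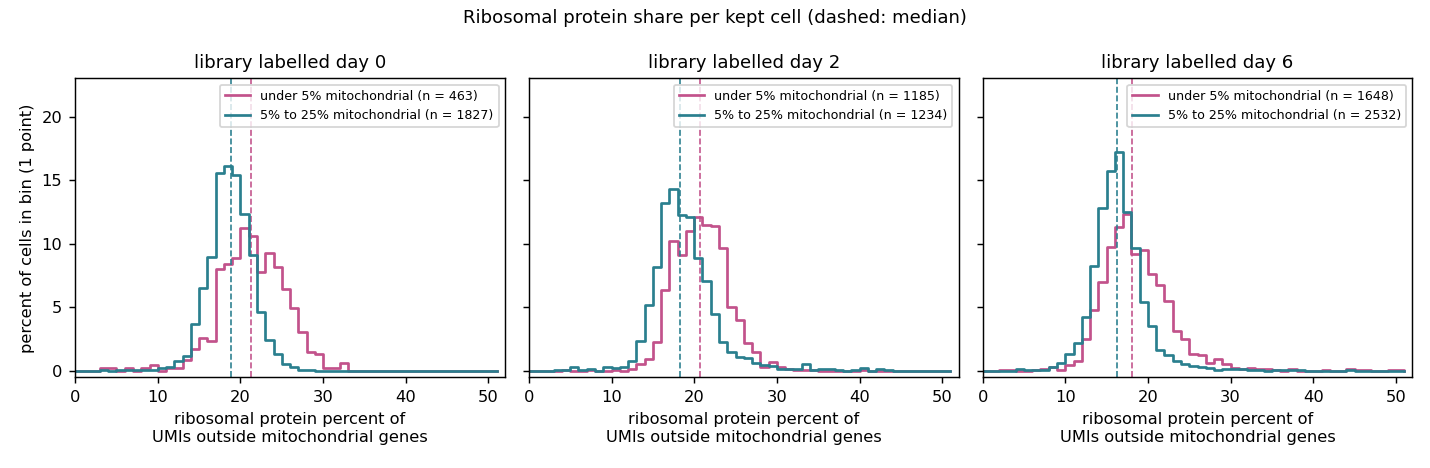
Ribosomal protein share of UMIs outside mitochondrial genes per kept cell (bins of 1 percentage point), as percent of the cells of each class, in the 3 libraries, with dashed lines at the medians. In each library the cells under 5% mitochondrial UMIs lie to the right of the others, and both classes of the library labelled day 6 lie to the left of the same class in the other two.

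The lower level of the library labelled day 6 was present within both mitochondrial classes. In cells under 5% and in cells of 5% to 25% mitochondrial UMIs, the members' median log2 ratio was -0.02 and -0.06 for labelled day 2/day 0, -0.23 and -0.18 for day 6/day 2, and -0.25 and -0.23 for day 6/day 0. The SD over members stayed between 0.23 and 0.28 in these classes. RPL26 had log2 ratios of labelled day 6/day 2 of -0.69 and -0.67 in the classes. For labelled day 2/day 0, RPL6 had -1.02 in cells under 5% and -0.69 in the others, and RPL39 -0.95 and -0.77. RPL3 had 0.35 and 0.43 and RPL30 0.60 and 0.43, so RPL30 passed 1.5-fold in the first class.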

How the data were processed

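The labels name 3 single-cell libraries, and for each the authors deposited whole-number counts per gene and barcode, read here as UMI counts since inDrop uses UMIs. The submitters' processing notes name STAR and hg38. The STAR version, annotation, strand setting and removal of duplicate reads: not given in the sources used here.

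A barcode counted as a cell from 1000 UMIs and 500 genes, with no more than 25% mitochondrial UMIs. Doublets were not called. Per library, UMIs of all kept cells were added up and scaled to 1000000 (CPM). Levels have exact Poisson and ratios exact conditional binomial 95% intervals (scipy 1.17.1, pandas 2.3.3). A count of 3 UMIs, the one-sided 95% limit for a count of 0, corresponds to 0.106, 0.145 and 0.0727 CPM. With 1 library per label, a gene was counted as different past 1.5-fold, and percentages over all genes use the 10574 genes that reach 10 CPM in any library. Members below that minimum were left out of counts and medians.

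The genes named with values are the 6 highest and 6 lowest members of each comparison, the 5 highest in each library and 17 chosen for their roles; a few that this rule names are not reported here. Further members of the lists or past 1.5-fold, such as RPS7, RPL13, RPL23A, RPS13 and RPS26, and the genes of other lists were named after their values were seen. The members and lists were chosen with earlier results of these data known. Gene positions come from GENCODE 29 (GRCh38). Scaling alternatives used edgeR 4.0.16 (TMM) and DESeq2 1.42.0 size factors. The ratios and intervals were tested on simulated data.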

Additional observations from a re-analysis of the deposited data

Results flagged for a closer look

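Barcodes left out by the filters also carried ribosomal protein transcripts. This is given because only the setting with all deposited barcodes used them. In barcodes above 25% mitochondrial UMIs that passed the other filters, the members made up 16.8%, 17.4% and 15.3% of the UMIs outside mitochondrial genes in the order of the labels, day 0, day 2, day 6 (528, 1110 and 990 barcodes). In barcodes under 1000 UMIs or 500 genes they made up 17.6%, 19.4% and 16.6% (8473, 8794 and 10903 barcodes). In both sets the library labelled day 6 had the lowest share, as in the kept cells.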

How the results depend on the processing

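For the single members followed in each setting, no ratio past 1.5-fold was reversed in direction. Other members and single genes of the other lists were not checked in this way. The members' median for labelled day 2/day 0, near 0, changed sign. Values are given for the libraries labelled day 0, day 2 and day 6 in that order, and medians as log2 ratios. With TMM factors the summed share was 16.9%, 16.7% and 13.8%, and the medians -0.33 for labelled day 6/day 2 and -0.33 for day 6/day 0. With median-of-ratios factors the shares were 16.9%, 16.8% and 13.69%, and these medians -0.35 and -0.34. Over all genes the split of higher and lower calls for labelled day 6/day 2 was 20.7% and 13.4%, and it became 16.6% and 16.1% with TMM and 15.7% and 17.1% with median-of-ratios factors. For labelled day 6/day 0 it went from 23.2% and 14.4% to 19.1% and 18.1%, and to 18.6% and 18.7%. Without mitochondrial genes in the totals the shares were 18.8%, 18.5% and 16.5%. With member genes also out of the totals they were 23.1%, 22.7% and 19.7%, with medians of -0.27 for both comparisons with the library labelled day 6.

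With CPM averaged over cells the shares were 17.2%, 18.3% and 15.8%, the 60S to 40S ratios 1.52, 1.46 and 1.51, and the medians 0.11 for labelled day 2/day 0, -0.26 for day 6/day 2 and -0.15 for day 6/day 0. Members higher in labelled day 2/day 0 were then 2, RPL3 and RPL30. With at least 2000 UMIs per cell the shares were 16.4%, 16.2% and 14.4%. With at most 10% mitochondrial UMIs they were 18.3%, 19.3% and 16.3%, the subunit ratio of labelled day 2 was 1.47, the medians were 0.10 for labelled day 2/day 0 and -0.31 for day 6/day 2, and 1 member, RPL3, was higher in the first. With at least 5% they were 16.1%, 15.1% and 13.9%, the subunit ratio of labelled day 6 was 1.49, and the medians were -0.088, -0.15 and -0.24. With all deposited barcodes they were 15.9%, 14.6% and 13.8%, with subunit ratios of 1.45 and 1.49 for labelled day 2 and day 6 and medians of -0.12 for labelled day 2/day 0 and -0.14 for day 6/day 2.

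Without the 5% of cells with the most UMIs, where doublets could lie, the shares were 16.6%, 17.04% and 14.5%, the subunit ratios of labelled day 0 and day 6 were 1.51 and 1.502, and the medians 0.058 for labelled day 2/day 0 and -0.28 for day 6/day 2. Without cells whose markers favoured another library the shares of labelled day 0 and day 2 were 16.5% and 16.4% and the subunit ratio of labelled day 0 was 1.51. This took out 1492 of 2290 cells labelled day 0, because LIN28A and SALL4 were high there. With these genes also left out, a setting chosen after seeing the data, 114 cells labelled day 0 and 33 labelled day 2 were removed. The share of labelled day 2 was then 16.4%. In both settings no cell of the library labelled day 6 was checked, so all of them were kept. At a minimum of 1 CPM, which brings in RPL3L, the SDs of the log2 ratios were 0.25, 0.33 and 0.30, and 1 member, RPL3L, was higher in labelled day 2/day 0. The causes of these shifts were not tested. Of the ratios of single named members, 637 stayed within the counting interval of the reported value and 731 did not. The planned count of members together with their pseudogenes could not be run, because the files hold no such symbols. No paired analysis was possible because each label has 1 library. Depth limits RPL10L, RPL3L and RPL39L most; for the others the missing replicates are the limit.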
